A study of Mus musculus with 3 samples.

Results

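The unfolded protein response is the set of signals by which a cell adjusts the folding capacity of its endoplasmic reticulum (ER) when unfolded proteins build up there. Here 10 genes of this response were described in beige adipocytes, heat-producing fat cells found in white fat depots, from peak lists of chromatin immunoprecipitation with sequencing (ChIP-seq) for the forkhead transcription factor Foxp4 and for H3K27ac, an acetylated histone H3 that marks active promoters and enhancers. The rule that chose the genes lists them by name and uses no peak value, although the list was drawn up with earlier results of these data known. Every peak whose deposited annotation names one of them as the nearest gene was taken, which gave 5 of 16937 Foxp4 peaks and 17 of 17564 H3K27ac peaks. The cells of C57BL/6 mice came from the stromal-vascular fraction of inguinal white fat. They were grown for 3 days and on to confluence in 20% serum. Induction lasted 48 h in 10% serum with insulin (5 µg/ml), isobutylmethylxanthine (0.5 mM), dexamethasone (1 µM), the thyroid hormone T3 (50 nM) and troglitazone (5 µM). A further 6 days with insulin, T3 and troglitazone followed. All 3 libraries, 1 each for Foxp4, H3K27ac and input DNA, share this culture, and no stressed, untreated or Foxp4-deficient group was analysed here. The labels give a Foxp4 antibody in the protocol of all 3 libraries and name none for H3K27ac, and the input was not used here.

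The response has 3 sensors in the ER membrane. Ern1 encodes IRE1, which splices the mRNA of the transcription factor Xbp1. Eif2ak3 encodes PERK, a kinase that slows translation and thereby favours synthesis of the factor Atf4, and Atf4 in turn activates Ddit3, which encodes CHOP. Atf6 is a membrane-bound transcription factor that is cleaved in the Golgi. Their targets include the chaperones Hspa5 (BiP) and Hsp90b1 (GRP94), the co-chaperone Dnajb9 (ERdj4) and Herpud1, a component of ER-associated degradation. The pathway is active in secretory cells and has been linked to fat cell differentiation.

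The 250 bases before the start of 4 of these genes are shown because 3 of them hold the ER stress elements through which the response is known to act, and the other, Xbp1, bore the highest acetylation score of the group. The sequences are RefSeq sequences on GRCm38.p6, the assembly of mm10, written 5′ to 3′ on the strand of the gene, with matches to the searched motifs in capitals. They lie at chr2:34771840-34772089 (plus strand, Hspa5), chr10:86705445-86705694 (minus strand, Hsp90b1), chr8:94386179-94386428 (plus strand, Herpud1) and chr11:5520391-5520640 (plus strand, Xbp1).
Hspa5: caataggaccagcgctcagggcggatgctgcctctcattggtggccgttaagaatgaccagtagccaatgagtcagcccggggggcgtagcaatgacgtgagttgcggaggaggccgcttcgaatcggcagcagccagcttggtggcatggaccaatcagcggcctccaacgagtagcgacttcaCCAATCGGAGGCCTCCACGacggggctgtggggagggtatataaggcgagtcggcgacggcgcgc
Hsp90b1: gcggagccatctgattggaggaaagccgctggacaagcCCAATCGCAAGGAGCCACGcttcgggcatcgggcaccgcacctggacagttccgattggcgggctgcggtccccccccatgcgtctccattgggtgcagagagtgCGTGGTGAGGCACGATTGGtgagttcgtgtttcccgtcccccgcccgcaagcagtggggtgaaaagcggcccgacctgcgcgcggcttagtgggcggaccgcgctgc
Herpud1: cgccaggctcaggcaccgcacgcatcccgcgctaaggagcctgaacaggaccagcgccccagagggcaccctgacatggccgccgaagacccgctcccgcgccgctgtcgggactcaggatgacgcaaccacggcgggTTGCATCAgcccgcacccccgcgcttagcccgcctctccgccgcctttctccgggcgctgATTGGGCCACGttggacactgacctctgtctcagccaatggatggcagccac
Xbp1: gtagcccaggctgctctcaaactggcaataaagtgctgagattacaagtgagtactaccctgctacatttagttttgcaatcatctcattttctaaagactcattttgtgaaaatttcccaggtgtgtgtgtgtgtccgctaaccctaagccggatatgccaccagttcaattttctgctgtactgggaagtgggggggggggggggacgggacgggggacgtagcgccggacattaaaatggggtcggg

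The ER stress response element, CCAAT and CCACG with 9 bases between them, is the site that ATF6 recognises together with the CCAAT-binding factor NF-Y. It was present in 2 of the 9 promoter sequences found for these genes (300 bases each, 250 before and 50 after the start), those of Hspa5 and Hsp90b1, and in 0.119% of all 32851 promoter sequences searched. At Hspa5 it ran from 65 to 47 bases upstream of the start. Hsp90b1 held it on both strands, from 212 to 194 bases upstream on the strand of the gene and from 107 to 89 bases upstream on the other. The second form of the element, ATTGG and CCACG with 1 base between them, was found at Herpud1 alone among the 9, from 52 to 42 bases upstream, and in 0.0365% of all promoters. It shares the part CCACG with the first form, and no match of one overlapped a match of the other here. Herpud1 also held TTGCATCA, a site of C/EBP and ATF factors, from 112 to 105 bases upstream, which 0.895% of all promoters hold. The XBP1 and ATF6 site TGACGTGG was in 0 of the 9 and in 0.676% of all. The forkhead cores TGTTTAC and TGTTTGC were in 0 of the 9, against 3.65% and 5.07% of all promoters. Both strands were searched for each motif, and only exact matches were counted. Copies that differ at a fixed base were not sought, so a count of 0 does not exclude them.

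The CCAAT box alone, counted after the sequences had been seen, was dense in several of them. Within the 250 bases it occurred 6 times at Eif2ak3, 5 times at Hsp90b1 and 4 times at Hspa5, while 1.05% of protein-coding promoters held 4 or more. Xbp1 and Ern1 had 0. The G and C content of the 9 sequences ranged from 50.4% at Xbp1 to 69.2% at Herpud1, with a median of 64.8%, against 56.0% over protein-coding promoters.

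H3K27ac marked the promoters of most of these genes. A promoter peak is here a peak whose centre lies within 1000 bp of a transcription start site (TSS) in the deposited annotation. An H3K27ac promoter peak was present at 8 of the 10 genes, against 26.0% of 21027 protein-coding genes, and an H3K27ac peak at any distance was assigned to 9 of 10, against 37.5%. By the authors' narrower promoter class, an H3K27ac promoter peak was counted at 5 of the 10 genes and at 12.6% of protein-coding genes. That count takes peaks assigned to a gene, whichever transcript the class names. For Ddit3 and Hsp90b1 the class names a neighbour's transcript, and a peak in the class of a Dnajb9 transcript is assigned elsewhere and left out. For Foxp4 the counts were near the background. Promoter peaks were found at 0 of 10, where 6.76% of protein-coding genes had one, a share that corresponds to fewer than 1 gene in 10. A Foxp4 peak at any distance was assigned to 5 of 10, against 36.6% of protein-coding genes, and it overlapped H3K27ac at 1 of 10, against 5.35%. The count of 5 fell to 3 in the higher-scoring 50% of the list (23.2% of protein-coding genes), to 2 without the recurrent scores described below (14.5%) and to 1 within 10000 bp of the TSS (18.0%). With 1 library of each kind there is no replicate error and no test, so these shares are descriptions. Sequencing depth is not known from the lists, so absence means only that no peak was called.

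**Figure D1:**
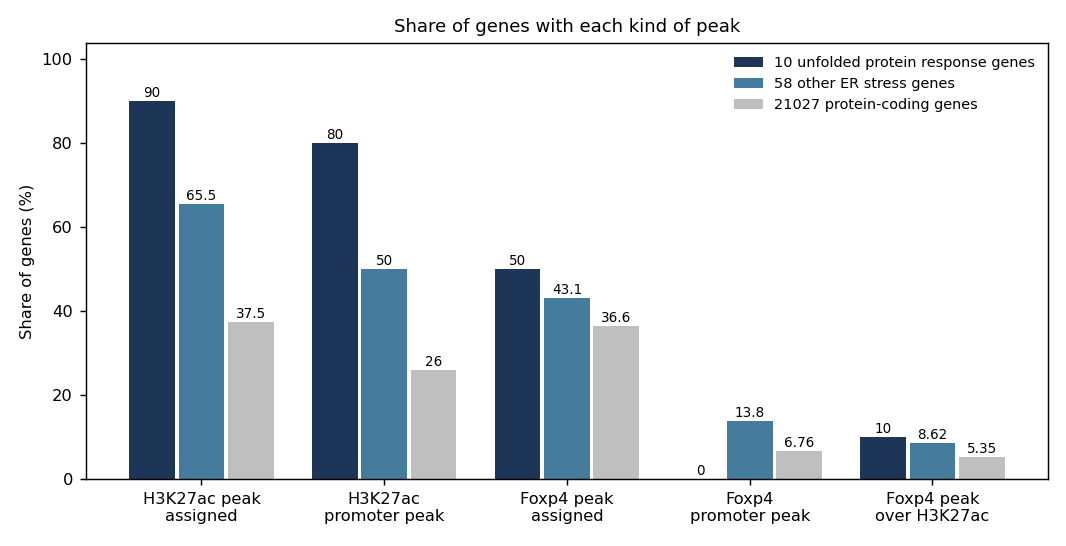
Share of genes (vertical axis, percent) with each kind of peak. Groups are the 10 unfolded protein response genes, 58 other genes of ER stress and 21027 protein-coding genes. Bars rest on 1 library, or on both lists for the overlap, and have no error. The 10 genes stand highest for H3K27ac (9 and 8 of 10), and their Foxp4 counts (5, 0 and 1 of 10) are near the shares of protein-coding genes.

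Among the sensors, Eif2ak3 and Ern1 had acetylated promoters and Atf6 did not. Eif2ak3 had 3 H3K27ac peaks, a number reached by 3 of the 10 genes and by 7.40% of protein-coding genes. The authors' score, a whole number of at least 20 that was compared only within a list, was 59 for the peak centred 906 bp upstream (chr6:70843057-70844161), 52 for the one 254 bp downstream in exon 1 of 17 (chr6:70844595-70844944) and 51 for the one 2025 bp upstream in a LINE repeat. The median score of the H3K27ac list was 40 over all peaks and 51 over promoter peaks, so Eif2ak3 lay above the first and close to the second.

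Ern1 had an H3K27ac peak of score 55 in a CpG island of intron 1 of 21, centred 266 bp downstream of the TSS (chr11:106487348-106487713). A second one of score 33 lay 11996 bp downstream in the same intron (chr11:106475252-106476348). One more peak inside the gene, of score 66 in intron 12 of 21 (chr11:106410572-106411301), is the highest-scoring of the 3 but carries the name of Icam2, the nearer TSS, in the deposited annotation.

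Atf6 had a single H3K27ac peak, in intron 7 of 15, centred 39317 bp downstream of the TSS, with a score of 30 that was the lowest of the 17 (chr1:170828271-170828637). No other H3K27ac peak lay nearer to its start. Its single Foxp4 peak, of score 33, lay in intron 14 of 15 (chr1:170760933-170761300), 106655 bp downstream, the farthest of the 5. Both peaks are annotated to copies of the same repeat, B2_Mm2, a SINE element with many similar copies in the mouse genome. How reads that map to several copies were treated is not given in the sources used here.

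The 3 transcription factor genes carried the highest acetylation scores of the group. Xbp1 had a peak of score 273 in a CpG island of intron 1 of 4, centred 878 bp downstream of the TSS (chr11:5520980-5522059). It ranked 5 among all 17564 H3K27ac peaks and 3 among the 6415 promoter peaks. A smaller peak of score 37 lay 565 bp upstream (chr11:5519892-5520261).

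Atf4 had the widest H3K27ac peak of the 17, at 2262 bp, with a score of 151 and a rank of 106 in the list (chr15:80254557-80256818). It spanned the start and most of this short gene, and its centre lay in intron 1 of 2 in a CpG island.

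Ddit3 had 3 H3K27ac peaks. The highest scored 146, which gave it rank 130 in the list, and was centred 846 bp upstream (chr10:127289413-127290482). It lies within the RefSeq span of the neighbouring gene Mbd6, whose span overlaps that of Ddit3 by 77 bp, and the authors' promoter class gives it to a transcript of Mbd6. Those inside Ddit3, both in intron 1 of 2, scored 50 at 483 bp downstream (chr10:127290856-127291697) and 54 at 1512 bp downstream (chr10:127292043-127292568). The peaks inside Ddit3 thus scored close to the list's promoter median, well below the one in the span of its neighbour.

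The chaperone and degradation genes were acetylated at moderate scores. Hspa5, the main Hsp70 chaperone of the ER, had a single H3K27ac peak of score 62 centred 547 bp upstream of the TSS (chr2:34771353-34771734), ranked 3211. Hsp90b1 had 1 of score 50 centred 480 bp downstream (chr10:86704641-86705288), which the authors' promoter class gives to a transcript of the neighbouring gene Ttc41. Conversely, an upstream peak of score 52 (chr10:86705770-86706893) is assigned to Ttc41 but is in the promoter class of an Hsp90b1 transcript. Herpud1 had 1 of score 54, in intron 1 of 7 by its centre, which at 1959 bp spanned the start (chr8:94386092-94388050). None of the 3 came near the scores of Xbp1, Atf4 or the upstream Ddit3 peak.

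Dnajb9 had no peak assigned in either list. By position, an H3K27ac peak of score 24 lay 520 bp upstream of its start (chr12:44210588-44210966), closer to the microRNA gene Mir5627, to which it is assigned, and in the authors' promoter class of a Dnajb9 transcript. Counted by position, 9 of the 10 genes therefore had an H3K27ac peak within 1000 bp of the start, all except Atf6, against 30.7% of 16852 protein-coding genes with a promoter sequence. That background does not include Atf6, which has no promoter sequence. It holds 20487 starts, so some of its genes have more than 1, while each of the 10 genes has 1.

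**Figure D2:**
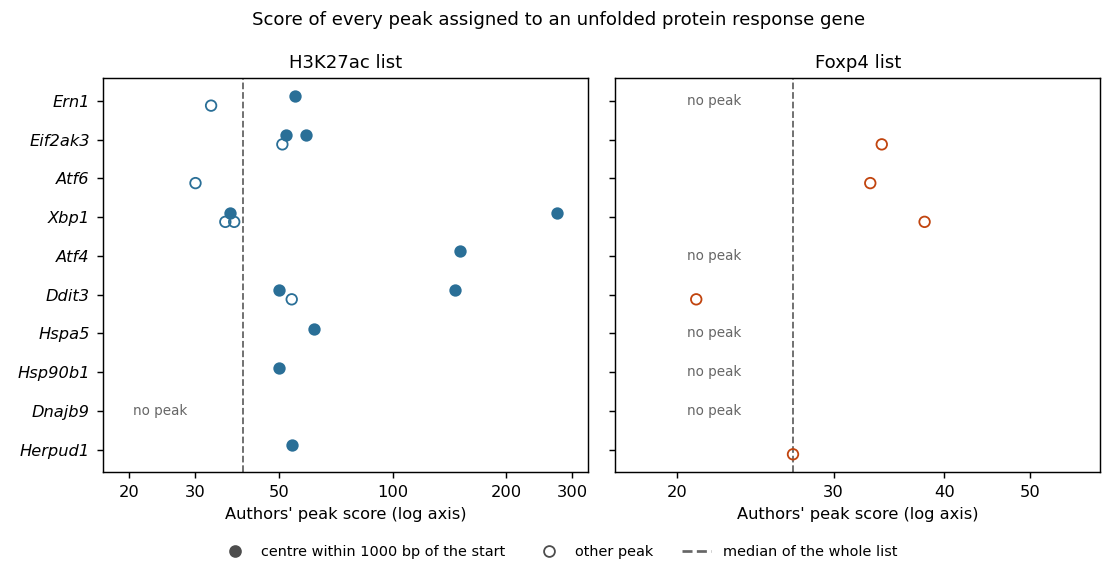
Authors' score (horizontal log axis) of every peak assigned to the 10 genes, in the H3K27ac list (left) and the Foxp4 list (right); filled points are promoter peaks, open points other peaks, and the dashed line is the median of the whole list. Xbp1 (273), Atf4 (151) and Ddit3 (146) stand apart on the left, and the 5 Foxp4 scores run from 21 to 38.

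Over the group, the 17 H3K27ac scores ran from 30 to 273 with a median of 52, and 12 were at or above the list median of 40. The 11 promoter peaks had a median of 55, and 8 of them lay above the promoter median of 51. Widths ran from 350 to 2262 bp. A CpG island was the detailed annotation of 3 of the 17 peaks, a SINE of 3 and a LINE of 1. The shares of these annotations over the whole list are not given here, so these counts are not a comparison.

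At several of these genes acetylation flanked the start. Of the 9 genes with an H3K27ac peak within 1000 bp by position, the start itself was outside the peak at 7, against 58.2% of 6203 such starts of protein-coding genes. At 4 of the 9 the start lay between a peak upstream and a peak downstream, both within 1000 bp, against 8.90% of those starts. The stretch without a peak was 373 bp long at Ddit3, 433 bp at Eif2ak3, 481 bp at Hsp90b1 and 718 bp at Xbp1. At Hsp90b1 the upstream peak, of score 52, is assigned to Ttc41, which lies 366 bp away from Hsp90b1 in the RefSeq table. Hspa5 and Dnajb9 had a peak on the upstream side alone within 1000 bp, and Ern1 on the downstream side alone.

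The ER stress elements shown above can be placed in this pattern. The 250 bases before the start had no base inside an H3K27ac peak at 7 of the 9 genes with a promoter sequence, among them Hspa5 and Hsp90b1, so the elements of both lay in the stretch beside the peak. The same share over all promoter sequences is not given here, so the count does not set these genes apart from others. At Atf4 and Herpud1 all 250 bases were inside one, and with them the elements of Herpud1.

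**Figure D3:**
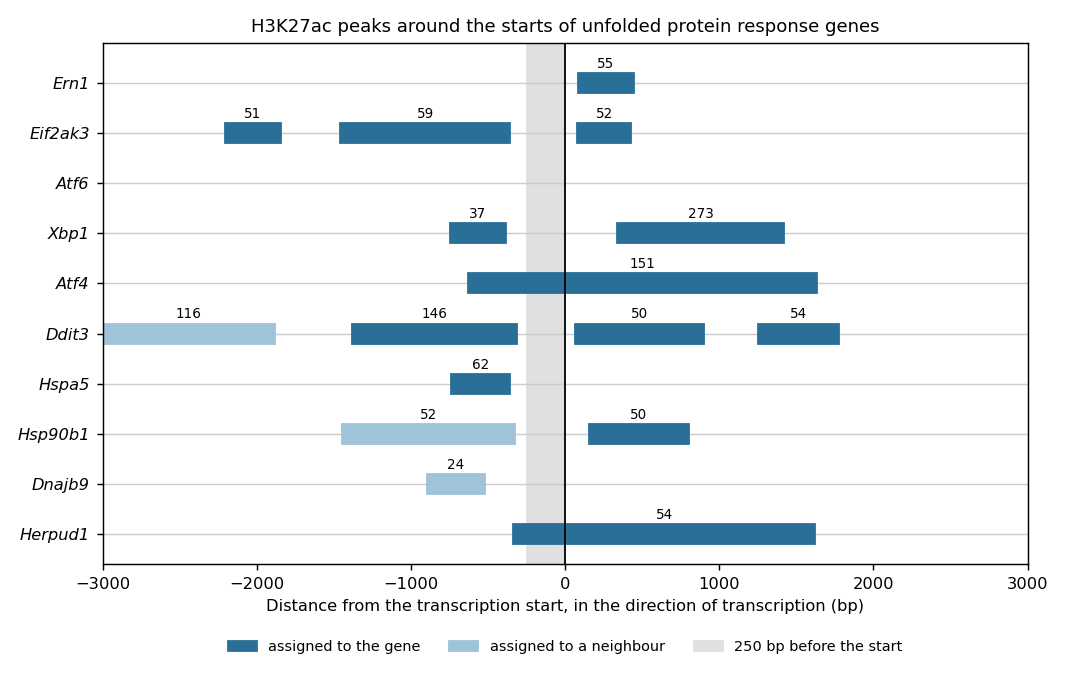
H3K27ac peaks within 3000 bp of the starts of the 10 genes; the horizontal axis is the distance from the start in bp along the direction of transcription, boxes are peaks to scale with their scores, pale boxes are assigned to a neighbouring gene, and the grey band marks the 250 bp before the start. Atf4 and Herpud1 are covered at the start, Eif2ak3, Xbp1, Ddit3 and Hsp90b1 are flanked on both sides, and Atf6 has no peak in the window.

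The Foxp4 peaks assigned to these genes lay far from the starts. Their scores were 21, 27, 33, 34 and 38, against a list median of 27, and 3 of them (21, 27 and 34) fall on the 6 recurrent scores, values shared by unusually many peaks, which hold 73.1% of the Foxp4 list. Distances of the centres to the TSS ran from 9626 to 106655 bp. Ern1, Atf4, Hspa5, Hsp90b1 and Dnajb9 had none.

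The peak of Xbp1 was the one that overlapped H3K27ac. It scored 38, which placed it above 83.6% of the Foxp4 list, and was centred 17872 bp upstream of the TSS (chr11:5502441-5503097). It shared 254 bp with an H3K27ac peak (chr11:5502844-5503200) that also scored 38, in its own list, which is 38.7% of the Foxp4 peak and 71.1% of the H3K27ac peak. Another H3K27ac peak, of score 36, lay 14919 bp upstream of Xbp1 in a SINE repeat (chr11:5505529-5505915). The deposited annotation calls these upstream peaks intergenic, and they fall within the long noncoding RNA gene Gm11963 of the RefSeq table. When at least 50% of the Foxp4 peak had to be covered, or its centre had to lie inside the H3K27ac peak, 0 of the 10 genes had an overlap.

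At Eif2ak3 the Foxp4 peak scored 34 and lay 23807 bp upstream in intergenic sequence (chr6:70820541-70820876). At Herpud1 it scored 27 and lay 19249 bp downstream (chr8:94405450-94405907), within the pseudogene Ap3s1-ps2 of the RefSeq table. At Ddit3 it scored 21, near the bottom of the list, and lay 9626 bp downstream in exon 12 of 22 of the neighbouring gene Mars1, a methionyl-tRNA synthetase gene (chr10:127300243-127300595). The peak of Atf6 was thus the only one of the 5 inside the gene it is assigned to.

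Measured by position and whatever gene a peak was assigned to, the nearest Foxp4 peak lay between 9.45 and 106 kb from the start of the 10 genes, with a median of 44.1 kb. The median was 37.6 kb over 16852 protein-coding genes with a promoter sequence, which do not include Atf6. It was 21.0 kb over the 5168 of them with an H3K27ac peak within 1000 bp. Distances were 9.45 kb at Ddit3, 17.5 kb at Xbp1, 19.0 kb at Herpud1 and 23.6 kb at Eif2ak3, the genes with an assigned peak other than Atf6. They were 34.7 kb at Hsp90b1, 53.4 kb at Hspa5, 69.6 kb at Atf4, 75.3 kb at Ern1 and 90.4 kb at Dnajb9.

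**Figure D4:**
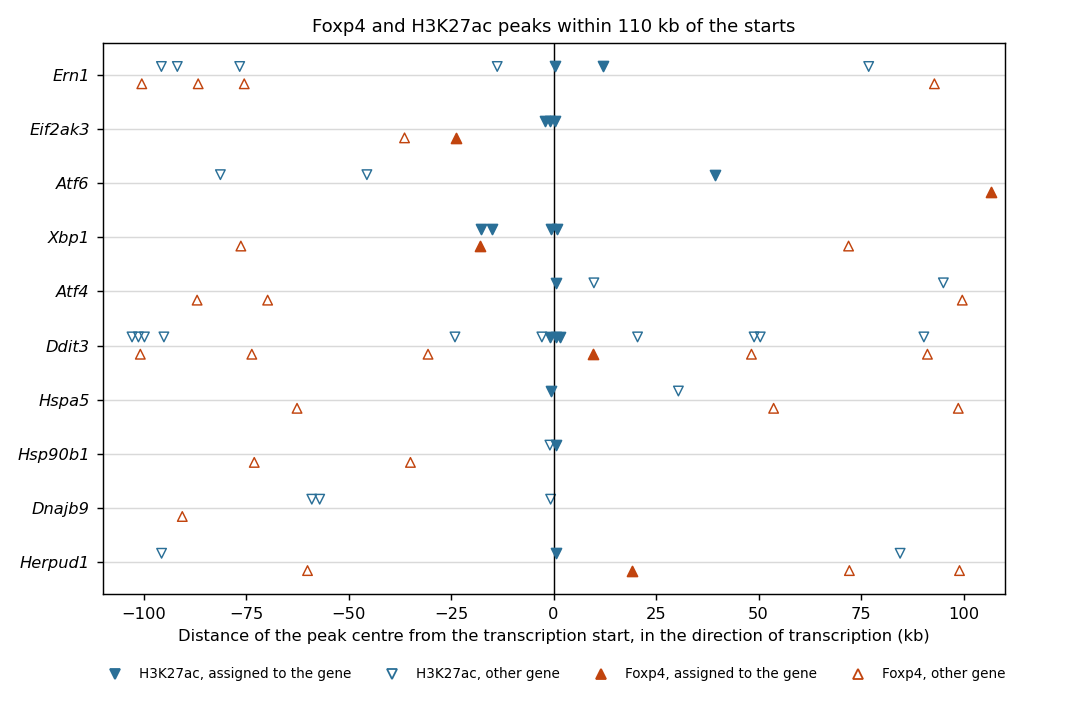
Centres of H3K27ac peaks (blue) and Foxp4 peaks (red) within 110 kb of the starts of the 10 genes; the horizontal axis is the distance in kb along the direction of transcription, filled marks are assigned to the gene and open marks to another gene. H3K27ac marks gather at the start of all genes but Atf6, and no Foxp4 mark lies closer than 9.45 kb.

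Other genes of ER stress were taken from a list of 58. Of these, 14 had no peak in either list, a count whose share over protein-coding genes is not given here. H3K27ac promoter peaks were present at 29 of the 58 (50.0%), against 26.0% of protein-coding genes. By the authors' narrower class 12 of the 58 had one, against 12.6% of protein-coding genes. By function, they were present at 8 of 16 chaperones and folding enzymes, 7 of 14 genes of ER-associated degradation, 9 of 14 genes of the integrated stress response, 3 of 7 genes of ATF6 processing and its relatives, and 2 of 7 partners of IRE1. The highest scores were at Ppp1r15a (112), which encodes the phosphatase subunit GADD34 that reverses PERK signalling, and at Vcp (98), the ATPase that pulls proteins from the ER membrane. Ube2j1, a ubiquitin-conjugating enzyme of the ER, followed with 97, Tmbim6 (Bax inhibitor 1) with 92 and Derl1, a channel component of ER-associated degradation, with 88. Xbp1, Atf4 and the upstream peak of Ddit3 scored above all of these. The authors' promoter class gives the Ppp1r15a peak to a transcript of Plekha4 and the Ube2j1 peak to one of 4933421O10Rik. Each of these peaks overlaps both genes of its pair.

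Foxp4 promoter peaks were present at 8 of the 58 (13.8%), against 6.76% of protein-coding genes. The count was 5 of 58 in the higher-scoring 50% of the list and 11 of 58 with a window of 3000 bp. The shares of protein-coding genes at these settings are not given here. The 8 were Ubxn4 (score 47), Sesn2 (35), Calr (34), Os9 (33), Atf3 (28), Derl2 (27), Pdia6 (26) and Ero1lb (22), the last named only to complete the count. The count goes by the deposited assignment and misses a peak at Ube2j1. There a Foxp4 peak of score 36 (chr4:33030616-33031817), assigned to another gene, shared 1114 bp with the H3K27ac promoter peak, 83.8% of the latter. Ubxn4, which recruits Vcp to the ER, carried its Foxp4 peak 93 bp downstream of the TSS, with 92.8% of it inside an H3K27ac peak of score 51. At Pdia6, a protein disulfide isomerase, the Foxp4 peak lay wholly within an H3K27ac peak of score 56. The Foxp4 promoter peak and the H3K27ac promoter peak did not overlap at Calr, the ER chaperone calreticulin, at Atf3 or at Sesn2. Of the Foxp4 peaks outside promoters, the one 2658 bp upstream of Atf5, a relative of Atf4, lay wholly within H3K27ac and scored 33. At Ero1l, an ER oxidase gene, the Foxp4 peak of score 41 shared 5.84% of its length with an H3K27ac peak. The one assigned to Derl1, of score 27 and 72637 bp from its TSS, shared 62.6% and lay in a SINE repeat in intron 2 of 3 of Zhx2.

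The counts at marker genes were as follows. H3K27ac promoter peaks were at 6 of 8 adipocyte genes (Pparg, Cebpa, Plin1, Lipe, Cidec and Lpl). Fabp4 and Adipoq had none: Fabp4 had 2 H3K27ac peaks outside the promoter, and Adipoq had 0 H3K27ac peaks at any distance. Such promoter peaks were at 1 of 8 thermogenic genes (Ebf2), 1 of 6 macrophage genes (Cd68), 0 of 5 endothelial genes and 0 of 5 skeletal muscle genes. At any distance, an H3K27ac peak was assigned to 7 of the adipocyte genes, 3 of the thermogenic, 2 of the macrophage, 3 of the endothelial (Pecam1, Cdh5 and Kdr) and 1 of the muscle genes (Myf5). A Foxp4 peak was assigned to 7, 4, 0, 4 and 2 genes of these lists in the same order. Among the 21027 background genes, 26.0% carried acetylation at the promoter by the same count. At any distance the background was 37.5% for H3K27ac and 36.6% for Foxp4. The thermogenic counts at any distance (3 and 4 of 8) and the muscle Foxp4 count (2 of 5) lay near this background. These counts therefore do not set those genes apart from others. Of the thermogenic genes, Ppargc1a had 4 H3K27ac and 5 Foxp4 peaks, 1 of the latter at the promoter, Ebf2 had 6 and 2, Elovl3 1 and 1, and Cidea a single Foxp4 peak. Both lists were empty at Ucp1, Adrb3, Dio2 and Prdm16. The share of other cell types in the culture was not tested.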

How the data were processed

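Per the submitters' processing notes, Bowtie2, Picard, SAMtools, MACS2, deepTools 3.3.0 and the mm10 build were used. Per the file headers, HOMER annotatePeaks.pl was run on the narrowPeak file of 1 library for each of both lists. Deposited scores are whole numbers from 20 upwards, and their definition, like the peak threshold and the use of the input, is not given in the sources used here. Peak number and score both move with depth, so the score was ranked only within a list.

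Only chromosomes 1 to 19, X and Y entered. Rows were matched to genes by the deposited gene symbol, and all 10 genes matched the RefSeq table of GRCm38.p6. The background was 21027 protein-coding genes with a curated transcript, matched by Entrez identifier. Overlap meant at least 1 shared bp. Positions were also read without the assignment, against the start in the RefSeq promoter table, which held 9 of the 10 genes. For Atf6 the start implied by the deposited distances was used. A score was called recurrent where 100 or more Foxp4 peaks had it and each adjacent score had fewer than 1 peak for every 3 of them.

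No test was made, since there is 1 library of each kind. The members, the wider list and the markers were chosen with earlier results of these data known. Named are all 10 members, and of the wider list the 5 highest H3K27ac promoter scores and up to 10 genes with the highest-scoring Foxp4 promoter peak or Foxp4 peak overlapping H3K27ac. Genes that share a peak or promoter with a member are named too. Alternatives covered the promoter window and class, the rule for overlap, the top 50% of each list by score, the recurrent scores, the matching of genes and the distance limit. Overlap and motif counts were tested on simulated data. Computation used numpy 2.4.6, pandas 2.3.3 and matplotlib 3.10.9.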

Additional observations from a re-analysis of the deposited data

How the results depend on the processing

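Of 32 alternative values, 23 stayed within 1.5 times the reported count. These include counts of 0 that could not fall, so the number is not a measure of stability. With the authors' promoter class in place of the 1000 bp window, 5 of the 10 genes and 12 of the 58 others had an H3K27ac promoter peak. Peaks classed to introns, exons or untranslated regions near a start leave the promoter class. In the higher-scoring 50% of each list, 3 of the 10 genes had an assigned Foxp4 peak, 0 had one overlapping H3K27ac, and 5 of the 58 others had a Foxp4 promoter peak. Without the recurrent Foxp4 scores, 2 of the 10 genes kept an assigned Foxp4 peak (Atf6 and Xbp1), and with peaks limited to 10000 bp from the TSS 1 did (Ddit3). The overlap at Xbp1 was lost, leaving 0 genes, when 50% of the Foxp4 peak had to be covered and when its centre had to lie inside the H3K27ac peak. The count of 0 genes with a Foxp4 promoter peak could not fall, and alternatives that remove peaks say nothing of its stability. It was also 0 with a window of 3000 bp and with peaks read by position, which could have raised it. No paired analysis was possible because there is 1 library of each kind. Depth is unknown, and no replicate shows which peaks recur.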
